A study of Homo sapiens with 6 samples.

Results

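The earliest response to the MEK inhibitor pimasertib was examined in OCI-LY10 cells. This established human line models diffuse large B-cell lymphoma, and belongs to the activated B cell-like subtype. The comparison rests on 2 of the 6 arrays of the series. One came from cells cultured with pimasertib for 4 h, and its partner from cells given the solvent DMSO for 4 h. The other 4 arrays came from pimasertib and DMSO cultures of 8 and 12 h, again with 1 array per treatment and time. All 6 arrays share the cell line and in vitro culture, and the dose of pimasertib is not given in the sources used here. One cell line with 1 array per condition gives no replicate, so differences at 4 h are values without a test.

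Values are log2 intensities on Illumina bead arrays that the authors had normalized to a common distribution. A probe was used if it lay above a background threshold of 6.7 on both arrays of 4 h, or above it on 1 of them with a difference of at least 1.5-fold (0.58 on the log2 scale, signed as pimasertib minus DMSO). Of 47231 probes, 17773 were above the threshold on both arrays and 5 more entered through the fold, so 29453 were left out. Of the 17778 probes used, 13608 were annotated to a single gene, and they covered 10323 genes. Each gene was represented by its brightest probe, and its other probes served as a check.

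MEK1 and MEK2 are the kinases that phosphorylate and activate ERK1 and ERK2, the last step of the RAS-RAF-MEK-ERK cascade. In B cells the cascade lies downstream of the B cell receptor, and active ERK phosphorylates transcription factors that switch on immediate early genes within minutes. These include EGR and FOS family factors, and also phosphatases and Sprouty proteins that restrain the cascade in turn. Transcripts of this kind are short-lived, so they are usual readouts of MEK inhibition.

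EGR1 carries the best known regulatory sequence among the genes of the largest differences. Its promoter holds serum response elements, or CArG boxes, where serum response factor binds together with ETS-type factors that ERK phosphorylates. The window of 250 bases before to 50 bases after its RefSeq start (GRCh38.p14, chr5:138465229-138465528, plus strand) is shown with its CArG boxes in capitals. The same window of PTPN6 (chr12:6946327-6946626, plus strand), the lower gene next to EGR1 in size, is shown for contrast and held none of the 6 motifs searched. Only this window of PTPN6 was searched, so the result covers no other start of the gene.
EGR1: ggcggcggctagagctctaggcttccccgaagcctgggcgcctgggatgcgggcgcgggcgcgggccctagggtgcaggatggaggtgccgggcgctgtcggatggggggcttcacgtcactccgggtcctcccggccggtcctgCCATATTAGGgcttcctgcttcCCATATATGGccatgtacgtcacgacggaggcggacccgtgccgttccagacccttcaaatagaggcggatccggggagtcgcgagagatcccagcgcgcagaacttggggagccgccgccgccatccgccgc
PTPN6: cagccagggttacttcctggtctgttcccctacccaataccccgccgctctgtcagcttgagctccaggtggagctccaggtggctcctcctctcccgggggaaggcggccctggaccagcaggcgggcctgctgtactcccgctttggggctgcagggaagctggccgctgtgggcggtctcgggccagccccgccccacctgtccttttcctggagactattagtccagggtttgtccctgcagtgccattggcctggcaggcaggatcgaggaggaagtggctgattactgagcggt

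The motifs searched on both strands were the CArG box, the EGR site (GCGTGGGCG), the ETS site (CCGGAAGT), the CRE (TGACGTCA), the AP-1 site (TGANTCA) and the E-box (CACGTG), and none of them contains another. The EGR1 window held 2 CArG boxes, at bases -105 to -96 and -83 to -74 from the start. A CArG box was found in 1.29% of 27305 RefSeq windows of 300 bases, in 1 of 63 windows of the lower genes described below, which is EGR1, and in 1 of 55 windows of the higher genes, which is PPM1A. Among the 8304 windows of measured genes the share was 1.07%. An ETS site was in 4.44% of all windows, in 9.59% of those of measured genes, and in 4 and 3 windows of the lower and higher genes. An AP-1 site was in 7.76% of all and 4.17% of measured windows, and in 5 and 3 of the lower and higher genes. A CRE was in 1.98% of all and 3.53% of measured windows, and in 2 and 2. An E-box was in 7.43% and 10.8%, and in 6 and 5. An EGR site was in 0.784% and 1.28%, and in 0 and 0. Such matches describe letters and not occupied sites.

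The cells were checked against markers of their labelled type. Of 10 B cell markers, 9 had an annotated probe, and 7 were above background, among them CD79A at 11.61 with pimasertib and 11.77 with DMSO, CD79B at 11.45 and 11.48, and MS4A1 (CD20) at 9.02 and 9.12. PAX5 and VPREB3 were below the threshold on both arrays. Of 11 T and NK cell markers only CD2 and CD5 were measured, at 7.70 and 7.65 with pimasertib and 7.82 and 7.70 with DMSO, and the CD3 chains were not. CD68 and CD14 of 9 myeloid markers, KRT8 and KRT19 of 7 epithelial markers, and COL3A1 and DCN of 7 fibroblast markers were measured, with differences from -0.22 to 0.13. Summed over annotated markers, log2 levels were 77.8 with pimasertib and 79.2 with DMSO for B cells, 74.3 and 73.9 for T and NK cells, 62.5 and 62.7 for myeloid, 47.4 and 48.1 for epithelial and 46.4 and 46.4 for fibroblast markers. These sums cover unequal numbers of markers and include those at background, so they do not compare cell types. The medians were 8.63 and 9.02 for B cell markers and 6.54 and 6.515 for T and NK cell markers. One of the later arrays stood apart. Over 10322 genes the DMSO array of 8 h correlated with the other 5 arrays at 0.89 to 0.92, whereas the other arrays correlated with each other at 0.94 to 0.995. Values at 8 h below carry that array as their DMSO side.

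The first question was how far the transcriptome differed after 4 h. The 2 arrays were close, with a Pearson correlation of 0.989 over 10322 genes and a median difference of 0.004. In 69.7% of genes the difference was below 0.2 in size, and the robust SD over genes was 0.18. At least 1.5-fold apart were 151 of 10323 genes, or 1.46%, with 77 lower (0.746%) and 74 higher (0.717%) with pimasertib. At least 2-fold apart were 4 lower genes and 4 higher ones. For comparison, the pimasertib array of 4 h had 11 genes lower and 5 higher past 1.5-fold than that of 8 h, with a correlation of 0.995. The DMSO array of 4 h had 417 genes lower and 770 higher than that of 12 h, at 0.955. The 2 treatments at 4 h were thus nearer to each other than DMSO cultures of 4 and 12 h, and farther apart than treated cultures of 4 and 8 h. Of 4170 probes in use without a single annotated gene, 79 were lower and 47 higher past 1.5-fold (3.02%).

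**Figure D1:**
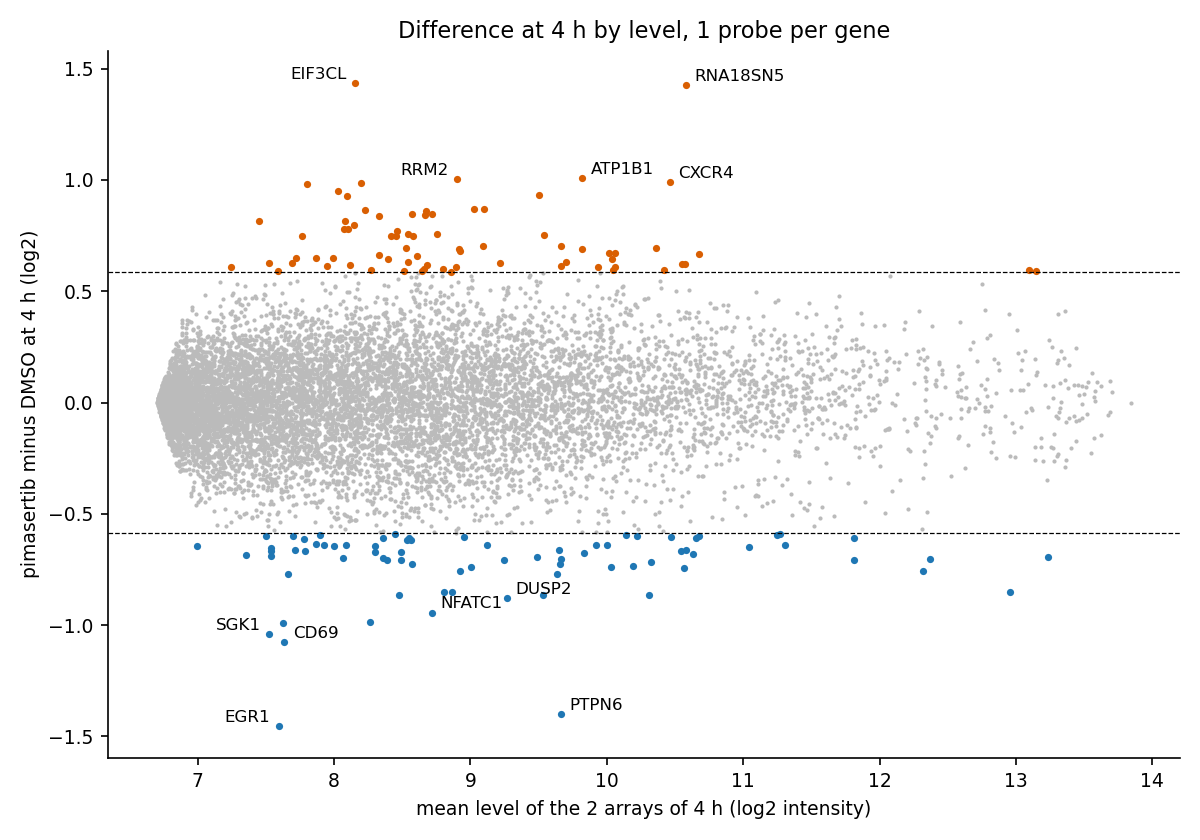
The mean log2 intensity of the 2 arrays of 4 h (x axis) is plotted against the difference pimasertib minus DMSO on the log2 scale (y axis), 1 point for each of 10323 genes. Dashed lines mark 1.5-fold, blue points are the 77 lower genes and orange points the 74 higher ones, with EGR1 and PTPN6 lying lowest and EIF3CL and RNA18SN5 highest.

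The share of genes past 1.5-fold depended on level. It was 0.0544% of 1839 genes with a mean level from 6.7 to 7, 0.843% of 3322 genes from 7 to 8, and between 1.67% and 3.48% in each of the brighter classes. Among the 597 genes above 11, 10 were lower and 2 higher. At the limit of the rule, ERGIC2 at -0.59 and ARPC1B at 0.59 lay just inside, and LTA at -0.58 and ANKRD10 at 0.58 just outside.

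The 6 protein-coding genes with the largest differences on the lower side were EGR1, PTPN6, CD69, SGK1, NFATC1 and DUSP2. All are known to act in or follow receptor signalling of lymphocytes, but this cut was not set beforehand. The non-coding SNORA79 and SCARNA9 (-0.99 each) ranked between SGK1 and NFATC1. RRP1 (-0.87) and MINDY1 (-0.86), described below without such a role, came directly after DUSP2 (-0.88). EGR1, a zinc finger transcription factor induced by ERK, had log2 intensities of 6.87, 6.74 and 6.62 with pimasertib at 4, 8 and 12 h, against 8.32, 8.77 and 8.85 with DMSO. At 4 h it was 2.74-fold lower (-1.45), its 3 pimasertib values lay near the background threshold, and they did not overlap the DMSO values. PTPN6 encodes SHP-1, the tyrosine phosphatase that binds inhibitory receptors of B cells and dampens B cell receptor signals. Its probe was at 8.96, 8.45 and 8.69 with pimasertib, against 10.36, 10.58 and 10.99 with DMSO. It was 2.64-fold lower at 4 h (-1.40), and again all 3 pimasertib arrays lay below all 3 DMSO arrays, here far above background.

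CD69, an early activation antigen that holds lymphocytes in tissue by removing the receptor S1PR1 from their surface, was at 7.10, 6.82 and 6.64 with pimasertib at 4, 8 and 12 h, against 8.18, 7.16 and 8.16 with DMSO. The difference at 4 h was -1.08, or 2.11-fold lower. The DMSO array of 8 h was the low one of its group, and on this probe the groups nevertheless did not overlap. On the other CD69 probe they did. There the DMSO array of 8 h, at 6.52, lay below the treated 6.61, 6.60 and 6.60, all under the threshold. SGK1, a serum-inducible and glucocorticoid-inducible kinase related to AKT, was at 7.01, 7.0 and 7.18 with pimasertib, against 8.05, 7.53 and 8.41 with DMSO. It was 2.06-fold lower at 4 h (-1.04), with steady values in the treated arrays and no overlap.

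NFATC1, a transcription factor that calcium and calcineurin bring to the nucleus, was at 8.25, 7.84 and 8.15 with pimasertib and at 9.19, 9.04 and 9.07 with DMSO. It was 1.92-fold lower at 4 h (-0.94), and the gap at 12 h was nearly equal to that at 4 h (-0.93). DUSP2, a nuclear phosphatase that inactivates ERK, was at 8.83, 8.74 and 8.60 with pimasertib, against 9.70, 9.84 and 9.39 with DMSO. It was 1.84-fold lower at 4 h (-0.88), and neither gene had overlapping groups. At 8 h their gaps were wider (-1.20 and -1.09), and DUSP2 was at -0.79 at 12 h. EGR1 and PTPN6 had their smallest differences at 4 h and larger ones at 8 and 12 h (-2.03 and -2.23 for EGR1, -2.13 and -2.30 for PTPN6).

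**Figure D2:**
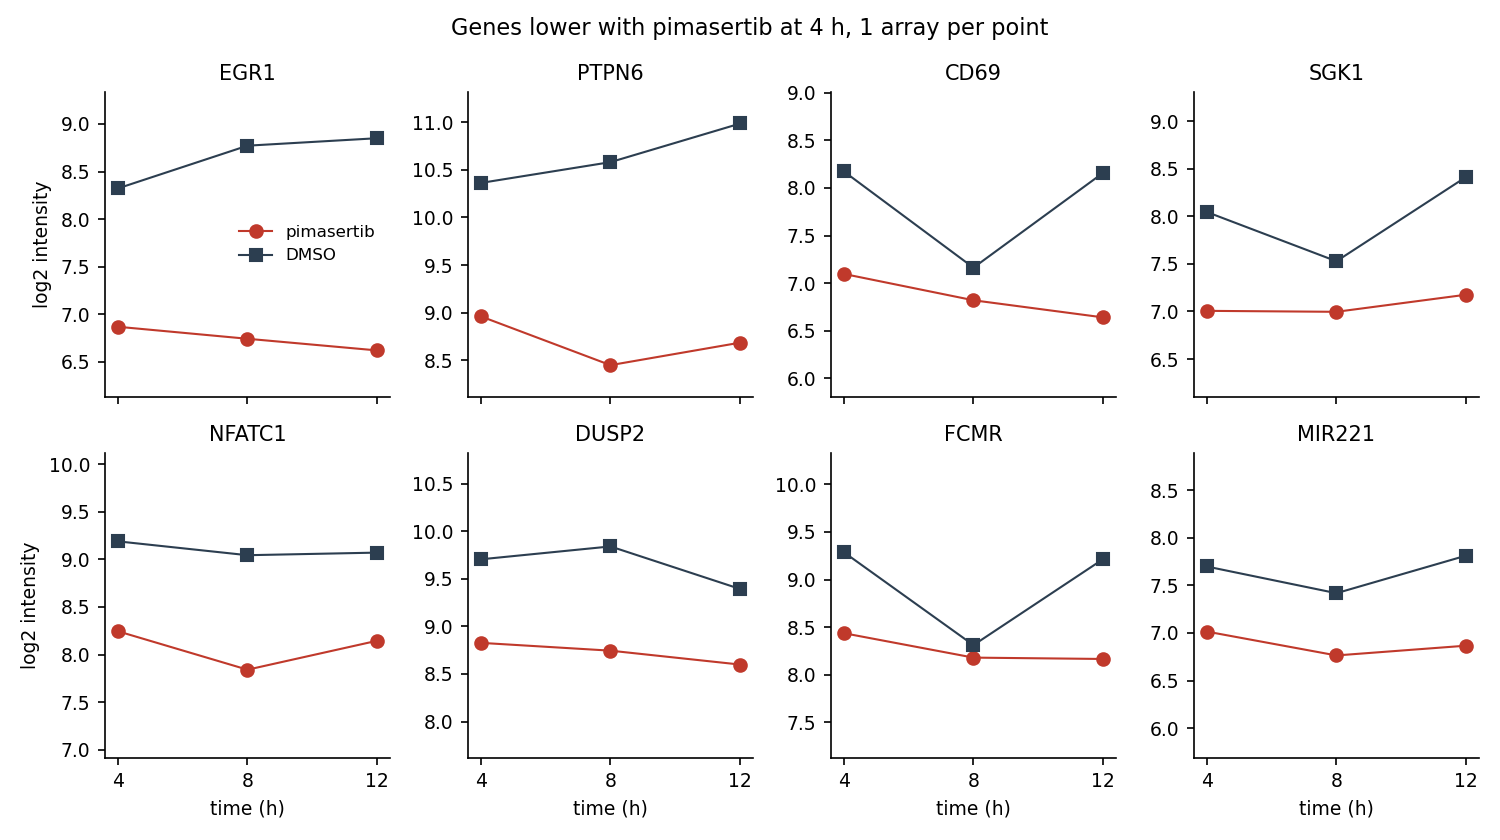
Log2 intensity (y axis, each panel spanning 3.2 units) is plotted against time (x axis, 4, 8 and 12 h) for 8 genes lower at 4 h, with pimasertib as red circles and DMSO as dark squares, 1 array per point. In each panel the red points lie below the dark point of the same time, and for CD69 and FCMR the DMSO array of 8 h falls close to them.

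Other lymphocyte genes lay among the 77. FCMR, the Fc receptor for IgM, was at 8.44, 8.18 and 8.17 with pimasertib, against 9.29, 8.31 and 9.22 with DMSO, a difference of -0.85 at 4 h. The DMSO array of 8 h lay among the treated values, so the groups overlapped. A few more were named after their values were seen. PTPN7, a phosphatase of haematopoietic cells that acts on ERK, was at -0.71, PTPRCAP, which associates with CD45, at -0.64 and the adaptor SASH3 at -0.64. Each was lower at 12 h too (-0.57, -0.83 and -0.32), with gaps of at most 0.08 at 8 h. RGS2 and RGS13, which switch off G protein signals of chemokine and other receptors, were at -0.69 and -0.64. RGS13 was also lower at 12 h (-1.08), but both genes were higher at 8 h (0.88 and 0.55), where their DMSO values were the lowest of all 6 arrays.

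SEMA3E, a secreted guidance factor, was at 9.88, 9.91 and 9.67 with pimasertib, against 10.74, 10.74 and 10.18 with DMSO (-0.86 at 4 h), without overlap. MMP7, a matrix metalloproteinase, and TNFSF15, a ligand of the TNF family, were also named after their values were seen, at -0.71 and -0.73, and both were lower at each later time. CMKLR2, a chemerin receptor, and BCL2A1, an anti-apoptotic BCL2 relative induced by NF-kB, were both at -0.77 at 4 h. For these 2 the DMSO array of 4 h was the high one, and the differences at 8 and 12 h were above 0 (0.52 and 0.79 for CMKLR2, 0.11 and 0.44 for BCL2A1).

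The rest of the 20 lowest genes held few of known signalling role. RRP1, a ribosome biogenesis factor, was at -0.87, the deubiquitinase MINDY1 at -0.86, NMI, an interferon-inducible protein, at -0.85, and the antisense transcript RAMP2-AS1 at -0.85. RPS26, a ribosomal protein, was at -0.76 with its other probe at -0.09, the phosphatase subunit PPP6R1 at -0.76, and FMC1 and MIGA1, both of mitochondria, at -0.74 each. MINDY1, RPS26 and PPP6R1 were lower at both later times, whereas NMI was higher at both (0.67 and 0.33).

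On the higher side the largest differences belonged to EIF3CL and RNA18SN5. EIF3CL encodes a near-identical copy of the translation initiation factor subunit EIF3C, so its probe may report both genes. The probe annotated to EIF3C itself went the other way, with 7.39 with pimasertib and 7.60 with DMSO at 4 h (-0.21). The EIF3CL probe was at 8.88, 8.82 and 8.54 with pimasertib at 4, 8 and 12 h, against 7.44, 7.95 and 9.14 with DMSO, and so 2.71-fold higher at 4 h (1.44). RNA18SN5, a copy of 18S ribosomal RNA, was at 11.29, 11.12 and 10.05, against 9.87, 9.15 and 11.44 with DMSO (1.43 at 4 h). For both the DMSO values spread over more than the treated ones, the groups overlapped, and the difference at 12 h was below 0 (-0.60 and -1.39).

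ATP1B1, the beta subunit of the sodium pump, was at 10.32, 9.75 and 10.57 with pimasertib, against 9.32, 10.06 and 9.25 with DMSO. It was 2.01-fold higher at 4 h (1.01) and higher at 12 h (1.32), but not at 8 h (-0.31). On its other probe the later signs were reversed, with 1.21 at 4 h, 0.71 at 8 h and -0.88 at 12 h. RRM2, the small subunit of ribonucleotide reductase, which makes deoxynucleotides for DNA synthesis, was at 9.40, 9.72 and 9.67, against 8.40, 9.10 and 9.91 with DMSO (1.0 at 4 h). CXCR4, the receptor of the chemokine CXCL12, was at 10.96, 11.36 and 11.24, against 9.97, 11.29 and 11.43 with DMSO (0.99). On the brightest probes of RRM2 and CXCR4 the DMSO array of 4 h was the lowest of the 6. There the later DMSO arrays lay within 0.7 of the treated ones or above them. On the other CXCR4 probe the DMSO array of 12 h was the lowest, at 7.53 against 10.23 with pimasertib, and the difference at 4 h was 0.09.

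CTNNB1, which encodes beta-catenin, was at 8.51, 8.35 and 8.32 with pimasertib and at 7.56, 7.64 and 8.04 with DMSO, a difference of 0.95 at 4 h, 0.71 at 8 h and 0.28 at 12 h, and its groups did not overlap. RB1, the retinoblastoma repressor of E2F factors, was at 8.72, 8.76 and 9.35, against 8.08, 8.01 and 7.23 with DMSO. It was 1.56-fold higher at 4 h (0.64) and its gap was widest at 12 h (2.12), again without overlap. The transcription factor USF1 was at 0.98, the phosphatase PPM1A at 0.99, the proteasome ATPase PSMC4 at 0.93, the DNA repair kinase PRKDC at 0.93 and WTAP, a subunit of the RNA methylation complex, at 0.87. Of these 5, PPM1A and PRKDC stayed above 0 on their brightest probe at both later times, with 0.08 and 0.20 at 12 h. Their other probes differed less at 4 h, with 0.48, 0.38 and -0.13 for PPM1A and 0.32, 0.205 and -0.11 for PRKDC. Other WTAP probes were at 0.71, 0.125 and 0.02. With the mean over probes, PPM1A (0.43), PRKDC (0.34) and WTAP (0.43) fell short of 1.5-fold, while PSMC4 (0.84) stayed past it. USF1 had no other probe in use.

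**Figure D3:**
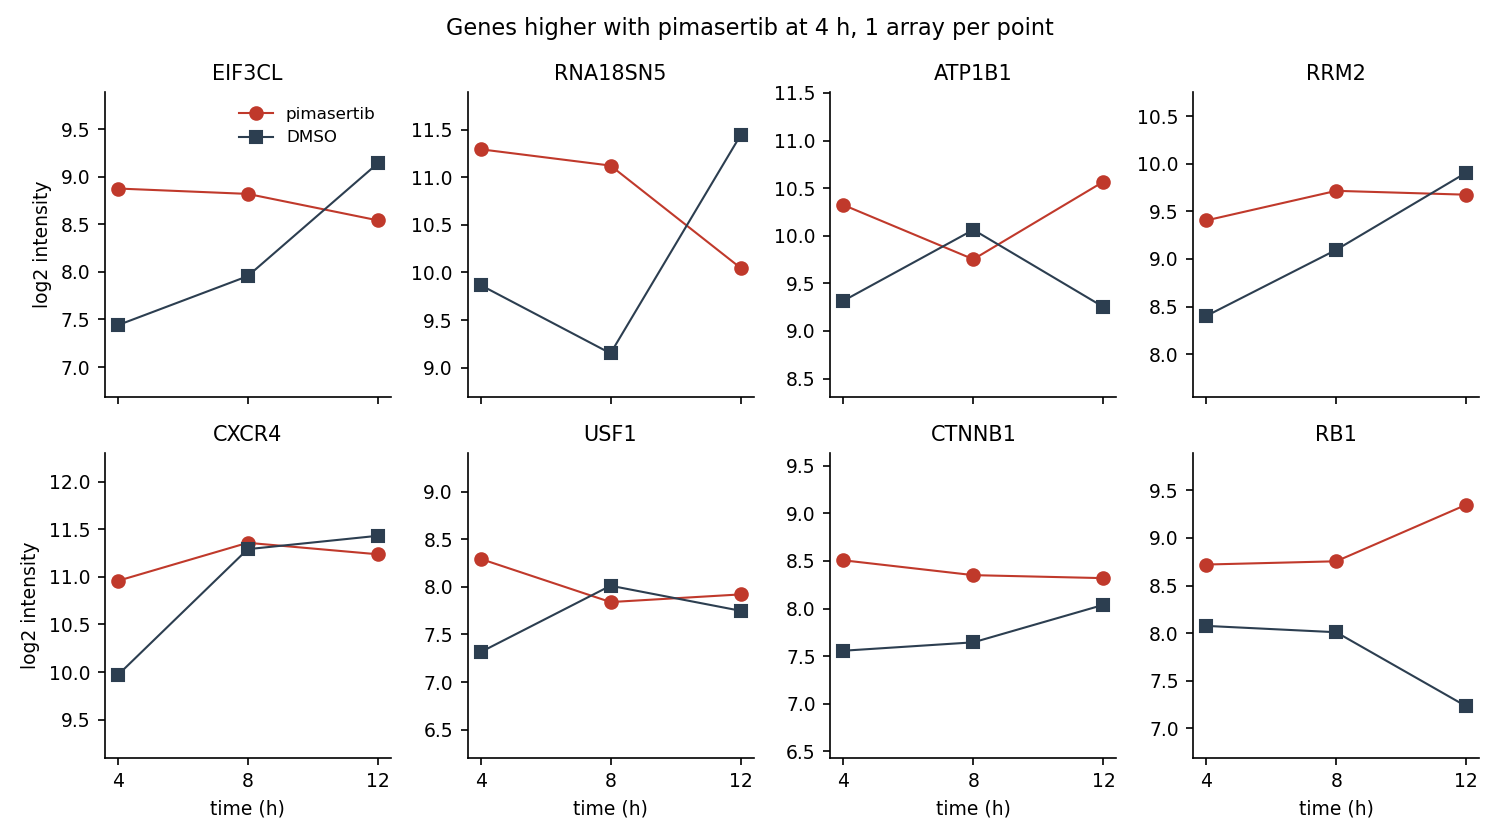
Log2 intensity (y axis, each panel spanning 3.2 units) is plotted against time (x axis, 4, 8 and 12 h) for 8 genes higher at 4 h, with pimasertib as red circles and DMSO as dark squares, 1 array per point. The red points stay above the dark ones at all times for CTNNB1 and RB1, and the lines cross for the other 6 genes.

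The next question was whether known ERK outputs were lower as a group. All lists here are described by counts and medians beside those of all genes, of which 48.9% were below 0. Of 25 feedback and output genes of ERK, 15 were measured, 12 of them below 0, with a median of -0.10 and 0 past 1.5-fold. EGR1 and DUSP2, both past 1.5-fold, were counted with the immediate early genes below and not in this list. With a higher background threshold, which leaves fewer dim members, the median was -0.29. KCNN4, a calcium-activated potassium channel, was nearest at -0.57, with 7.28 with pimasertib and 7.85 with DMSO. MAFF, a small MAF factor, was at -0.49, the BH3-only gene BMF at -0.30 with its other probe at 0.02, and DUSP5, a nuclear ERK phosphatase, at -0.30, and these 4 were lower at 8 and 12 h too. The ETS factors ETV4 and ETV5 were at -0.26 and -0.27, close to background at about 7, and the other ETV5 probe was at 0.0005. DUSP6, the cytoplasmic ERK phosphatase, lay at 6.89 with pimasertib and 6.76 with DMSO. DUSP4, SPRY1, SPRY2, SPRY4, EGR3, FOS and NR4A1 did not pass the background rule, and EGR2 and BTG2 were not analysed here.

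Of 35 immediate early genes, 26 were measured. Past 1.5-fold lower were 3 of them, or 11.5%, and 0 were higher, against 1.46% of all genes either way. These were EGR1, SGK1 and DUSP2, and the median of the list was -0.06. This list, like the others, was chosen with earlier results of these data known, so its share is no independent evidence. The remaining members lay between -0.39 for ZFP36L1 and 0.54 for ATF3, a stress-induced factor. JUN was at -0.01, JUNB at -0.08, FOSB at -0.06, IER2 at -0.15, IER3 at -0.05, DUSP1 at 0.13, ZFP36 at 0.20 and NAB2, a corepressor of EGR factors, at -0.05. IER5 was at -0.21 and lower at both later times (-0.40 and -0.72). MYC was at 10.61 with pimasertib and 10.49 with DMSO (0.12), and its other probe was at -0.38. The difference at 4 h was thus carried by a few members and not by the class.

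Of 27 B cell receptor components measured, 17 were below 0, with a median of -0.04, and 1, PTPN6, was past 1.5-fold (3.7%). VAV1, a guanine exchange factor, was at -0.50, the kinase BLK at -0.39 and the adaptor BCL10 at 0.47 with its other probe at -0.02. Of 23 measured genes of B cell activation, 16 were below 0, with a median of -0.13, the lowest median of the 25 lists. CD69 and NFATC1 were past 1.5-fold (8.7%), and lymphotoxin alpha, LTA, was just short of it at -0.58 with 8.61 with pimasertib and 9.19 with DMSO. LTA was also lower at 8 and 12 h (-0.96 and -0.79). TNF was at -0.24 and the chemokine CCL3 at -0.21.

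Components of the RAS-MAPK cascade had a median of 0.12, with 12 of 21 above 0. The transcription factor ETS1 was at 0.67, PTPN11, which encodes the phosphatase SHP-2, at 0.38 and RPS6KA3, an ERK-activated kinase, at 0.35 with its other probe at -0.04. Genes of egress, chemokine response and adhesion held CD69 and RGS2 on the lower side and CXCR4 on the higher one, with a median of -0.09 over 21. The homing receptor CCR7 was at 0.57 and KLF2, a regulator of egress genes, at -0.11. FOXO targets had a median of 0.04 over 20 members, with SGK1 the 1 past 1.5-fold at -1.04, FOXO1 at 0.53, BCL6 at 0.38, TXNIP at 0.11 and CDKN1B, the gene of p27, at -0.17, whose other probe was at 0.27.

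NF-kB genes went both ways around a median of -0.05. IRF1 was at 0.57, NFKBIA, which encodes the inhibitor IkB-alpha, at 0.17, and BCL2A1 was the 1 of 22 past 1.5-fold. Genes of the activated B cell-like subtype had a median of 0.05 over 21, with the kinase PIM2 at 0.67, IL16 at -0.46 and the subtype's key factor IRF4 at -0.20. In the BCL2 family of 16 the median was -0.04. BIK, a BH3-only gene, was at -0.52 with 7.75 with pimasertib and 8.28 with DMSO, and its gap was -1.14 and -1.44 later. BCL2 was at 0.43, PMAIP1, which encodes NOXA, at 0.33 against -0.02 on another probe, and BCL2L11, the gene of BIM, at 0.25 against -0.15 and -0.09 on others. MCL1 was at -0.16, but its other probe was at 0.72.

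Of 26 interferon-stimulated genes, 22 were above 0, against 51.0% of all genes, with a median of 0.19 and 0 past 1.5-fold. Their medians at 8 and 12 h were 0.14 each. IFI6 was at 0.49, with its other probe at 0.07, CXCL10 at 0.43 and SAMD9L at 0.38. Of 24 genes of the ATF4 and amino acid response 18 were above 0 (median 0.14), with the transporter SLC7A5 at 0.44 and the serine synthesis enzyme PHGDH at 0.33. WARS1 of the same list was at -0.33, with its other probe at -0.13. DNA replication genes had 23 of 32 above 0 and G2/M genes 22 of 31 (median 0.13 each), but their medians at 8 and 12 h were below 0. CDC20 was at 0.46, CKS1B at 0.42 with its other probe at 0.10, and MCM5 at -0.52. D cyclins and RB gate genes had 15 of 21 above 0 (median 0.09), with cyclin D2, CCND2, at 0.26 and cyclin D3, CCND3, at 0.09.

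The remaining lists lay within 0.09 of 0 in their medians. These were heat shock genes (0.08), germinal centre and plasma cell genes (0.03), growth and ribosome biogenesis genes (0.03), glycolysis genes (0.02), translation initiation factors (0.02), p53 targets (0.0045), histones (0.0028), sterol and fatty acid synthesis genes (-0.02), ribosomal proteins (-0.03) and MHC class II genes (-0.03). The chaperonin TCP1 was at -0.61 against 0.35 and 0.0045 on others, and PGAM1 of glycolysis at 0.62 with its other probe at 0.76. Among 31 initiation factors, EIF2S3 at 0.70 and EIF5A at 0.69 joined EIF3CL on the higher side, and EIF1AX was at -0.70 against -0.03 on another probe. Of the 7 measured B cell markers, 7 were below 0, with a median of -0.15 and BLK lowest. In bulk cultures, fewer cells of a state and less RNA per cell cannot be told apart.

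**Figure D4:**
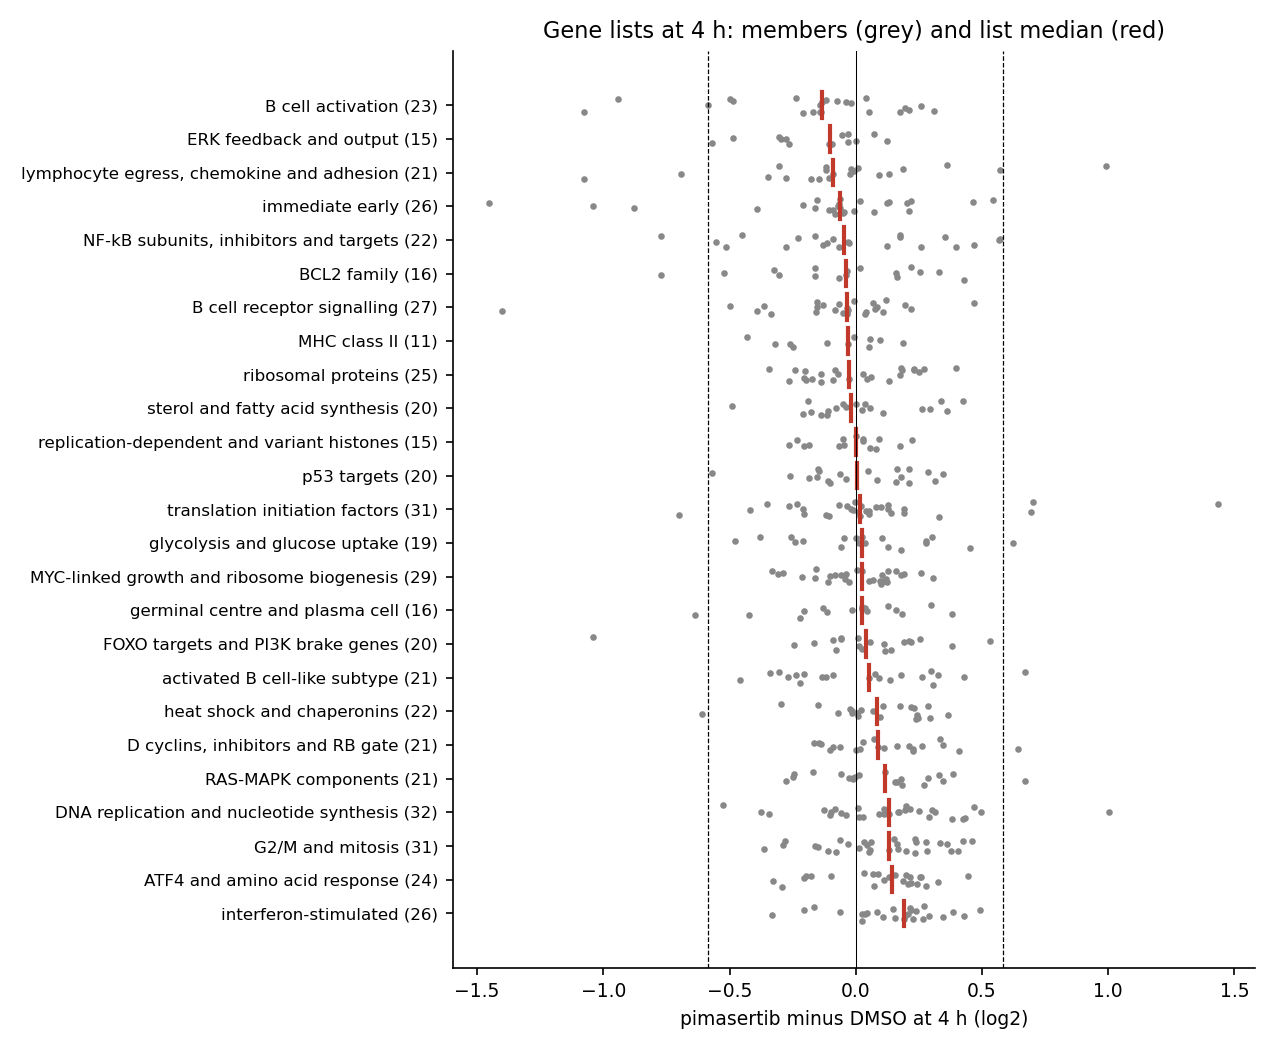
The difference pimasertib minus DMSO at 4 h (log2, x axis) is shown for the measured members of 25 gene lists (y axis, number measured in brackets), with grey points for genes and a red bar for the list median. Dashed lines mark 1.5-fold, and the medians run from -0.13 for B cell activation to 0.19 for interferon-stimulated genes.

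Small and structural RNAs took part on both sides. Of 38 microRNA gene probes, 1 was lower and 2 higher past 1.5-fold (7.89%, against 1.37% of 9706 protein-coding genes). MIR221, named after its values were seen, lies on chromosome X and yields a mature RNA that is shown here because its probe stayed lower at all times (RefSeq, GRCh38.p14, chrX:45746180-45746202, minus strand, seed of bases 2 to 8 in capitals).
hsa-miR-221-3p: aGCUACAUugucugcuggguuuc

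The MIR221 probe was at 7.01, 6.76 and 6.87 with pimasertib, against 7.70, 7.42 and 7.81 with DMSO, a difference of -0.68 at 4 h. The groups did not overlap, though all values were within 1.2 of the background threshold, and an array probe of this kind may report the precursor transcript and not the mature RNA. The higher microRNA genes were MIR1228 at 0.81 and MIR1267 at 0.63, and both were below 0 at 12 h. Of 143 genes annotated as small nucleolar RNAs, 2 were lower and 2 higher past 1.5-fold (2.8%, against 1.46% of all genes). The lower ones were SNORA79 at -0.99 and SNORD78 at -0.64, and SNORD33 at 0.81 was one of the higher. SNORD78 was the 1 gene of the 10323 that entered through the fold, with 6.68 with pimasertib and 7.32 with DMSO. SCARNA9, a guide RNA of Cajal bodies that the annotation puts outside that class, was at -0.99. Besides RNA18SN5, the 28S copy RNA28SN5 was at 0.77 and its other probe at 1.06. Both were below 0 at 12 h.

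Other probes of the same gene gave a check inside the 2 arrays. Of the 77 lower genes, 25 had other probes above the threshold on both arrays, 35 in all. Of these 35, 23 were below 0 and 3 were also past 1.5-fold, while 20 lay within 0.2 of 0 and the median was -0.05. The 3 belonged to SGK1 (-0.93), MMP7 (-0.69) and BLZF1 (-0.61). A further SGK1 probe at -0.88 and the other CD69 probe at -0.68 entered through the fold, with pimasertib values below the threshold. The other NFATC1 probes were at -0.55 and -0.33. EGR1, PTPN6, DUSP2 and FCMR had no other probe in use, so their values rest on a single probe. In contrast, the 4 other probes of TCAF2, at -0.72 on its brightest probe, ran from 0.05 to 0.17, and those of FMC1, KLHL28, CHRNA5 and HAT1 were between 0.01 and 0.17.

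Of the 74 higher genes, 25 had other probes, 38 in all, of which 30 were above 0 and 11 past 1.5-fold, with a median of 0.21. ATP1B1 was at 1.21 on its other probe, CTNNB1 at 0.80, and PSMC4 at 0.90 and 0.68. CXCR4 was at 0.09, TMEM33 at 0.0002 and GTF2I at -0.11, so their brightest probes stood alone. Over 3281 other probes of all genes, 57.5% had the sign of the brightest probe and the correlation was 0.26, across probes that share the 2 arrays. The other probes are the dimmer ones, since the brightest was chosen.

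**Figure D5:**
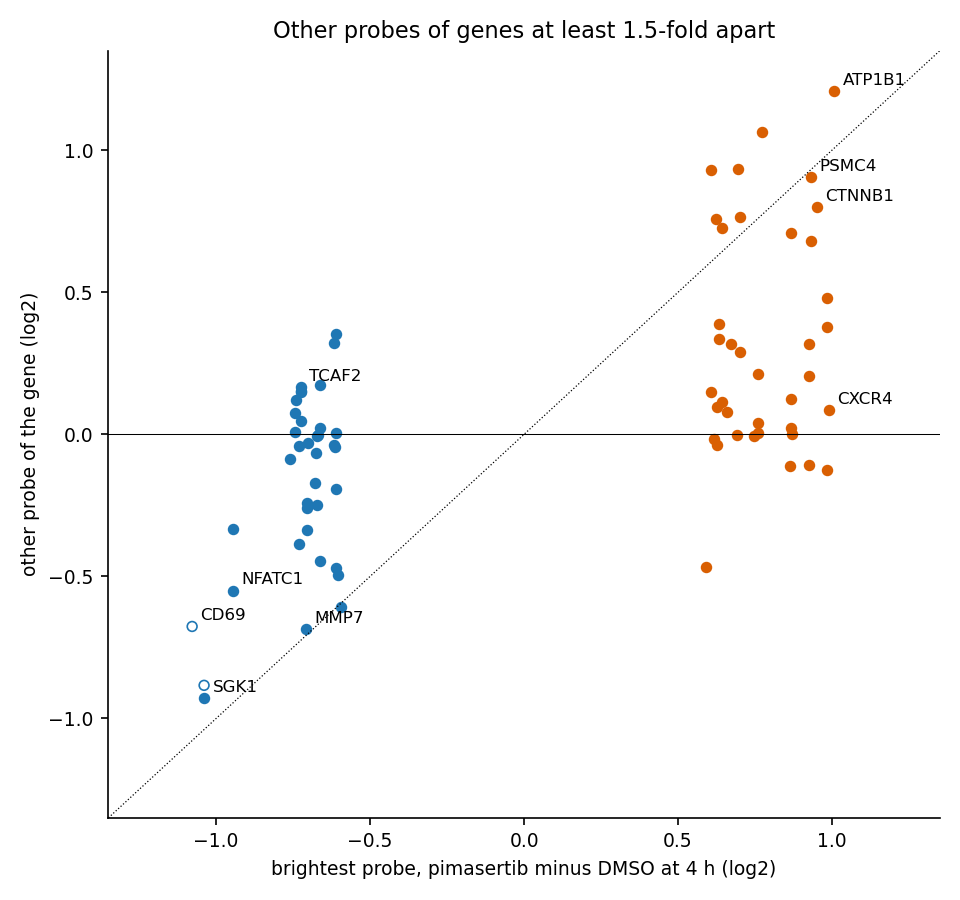
For genes at least 1.5-fold apart at 4 h, the difference on the brightest probe (x axis, log2) is plotted against that on each other probe in use (y axis, log2), with blue for lower and orange for higher genes. Open circles are probes that entered through the fold, the dotted line marks equality, and SGK1, MMP7 and CTNNB1 lie within 0.2 of it while many other probes lie near 0.

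The last question was whether genes apart at 4 h were apart in the later pairs, which share no array with the 4 h pair. The shares of all genes, here and for the higher genes below, were not matched for level. At 4 h the share past 1.5-fold depended on level, and few genes of the dimmest class were past it. At 8 h, 52 of 77 lower genes were below 0 (67.5%, against 48.3% of all genes), and at 12 h 53 were (68.8%, against 52.0%). At least 1.5-fold lower were 29 at 8 h (37.7%, against 10.7%) and 20 at 12 h (26.0%, against 8.93%), while 9 and 10 were past 1.5-fold the other way. At both times 9 genes were at least 1.5-fold lower (11.7%, against 1.51%). These were EGR1, PTPN6, NFATC1, DUSP2, LRRFIP1, MMP7, MIR221, the DNA repair enzyme TDP1 and the ribosomal protein gene RPL14, each on its brightest probe. Other probes at 8 and 12 h were at -1.20 and 0.66 for RPL14, 0.07 and 0.20 for TDP1, and -0.16 and -0.66 for MMP7. Those of NFATC1 were lower at both times, at -0.59 and -0.44 and at -1.21 and -1.56. EGR1, PTPN6, DUSP2, LRRFIP1 and MIR221 had no other probe in use. In 35 of the 77, both later pimasertib arrays lay below both later DMSO arrays (45.5%, against 19.4%). With the 4 h pair included, all 3 pimasertib arrays lay below all 3 DMSO arrays in 31 of 77 (background 8.15%, with the 4 h pair part of the choice).

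For the 74 higher genes the later pairs gave less. Above 0 were 49 at 8 h (66.2%, against 51.7%) and 40 at 12 h (54.1%, against 48.0%). At least 1.5-fold higher were 26 at 8 h (35.1%, against 17.1%) and 10 at 12 h (13.5%, against 9.46%), with 6 and 7 past 1.5-fold the other way. At both times there were 3 (4.05%, against 2.36%), namely RB1, POT1, which protects telomere ends, and CLINT1, an adaptor of vesicle coats. In 18 of 74, both later pimasertib arrays lay above both later DMSO arrays (24.3%, against 18.9%). All 3 lay above all 3 in 14 (background 7.57%, again with the 4 h pair part of the choice). The difference between the lower and the higher genes in these shares was not tested.

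Many of the 151 genes did not stay past 1.5-fold when the DMSO side was changed. The mean of the DMSO arrays of 4 and 12 h was put in place of the DMSO array of 4 h. Then 17 of the 77 lower genes and 13 of the 74 higher ones stayed past 1.5-fold, and 3 and 2 crossed 0. In all, 39 genes were then lower and 239 higher. Whether the losses came from the 4 h array, the 12 h array or the time in culture was not tested. EGR1 (-1.72), PTPN6 (-1.71), SGK1 (-1.22), CD69 (-1.07), NFATC1 (-0.88), FCMR (-0.82), MIR221 (-0.74) and DUSP2 (-0.72) were among the 17. ATP1B1 (1.04), RB1 (1.07) and USF1 (0.76) were among the 13, and RRM2 and CXCR4 were not. These values are those of the brightest probe, and the other ATP1B1 probe was lower with pimasertib at 12 h (-0.88).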

How the data were processed

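The members and gene lists were chosen with earlier results of these data known. RNA was extracted with a commercial kit and labelled as biotinylated cRNA, per the labels' protocols. The authors deposited log2 values for 47231 probes, spanning 6.20 to 13.91. Sorted, the 6 arrays never differed by over 9e-04, so they had been given a common distribution. Software and background correction: not given in the sources used here. Base 2 was inferred from the range. A second table with 6 value columns matching no label was not used. No detection p-values were at hand, so the threshold of 6.7 was used, which lies 3.17 background SDs above the most frequent value of 6.48. By the platform annotation 30113 probes had 1 gene, 8 had several and 17110 had none, and 30074 were matched to RefSeq with 0 symbols changed.

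Differences were computed in Python 3.11.15 with pandas 2.3.3 and numpy 2.4.6. Cyclic loess and normexp came from limma 3.58.1 (R 4.3.3). With 1 array per treatment there is no test, and the number of arrays limits the precision. The genes named were the 20 of the largest difference per direction, up to 3 per list, and 49 others taken whatever their values. Not all of them are printed, and other genes in the text were chosen after their values were seen. Alternatives changed the threshold, the filter, the probe, the normalization, the background correction, the fold or 1 array.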

Additional observations from a re-analysis of the deposited data

Results flagged for a closer look

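Some genes named above were at least 1.5-fold apart at 4 h and at least 1.5-fold apart the other way at a later time. With 1 array per treatment and time, these differences between times were not tested. Among genes lower at 4 h, SCARNA9 (-0.99) was at 0.79 at 12 h, NMI (-0.85) at 0.67 at 8 h, RAMP2-AS1 (-0.85) at 1.05 at 12 h, CMKLR2 (-0.77) at 0.79 at 12 h and RGS2 (-0.69) at 0.88 at 8 h. Likewise TCAF2 (-0.72) was at 1.57 at 8 h, and HAT1 (-0.66) and BLZF1 (-0.59) were at 0.67 and 0.87 at 12 h. Among genes higher at 4 h, EIF3CL (1.44) was at -0.60 at 12 h, RNA18SN5 (1.43) at -1.39 at 12 h and ANP32AP1 (0.85) at -0.89 at 8 h. RNA28SN5 (0.77) was at -0.71 at 8 h and -0.72 at 12 h, EIF5A (0.69) at -0.82 at 12 h, MIR1267 (0.63) at -0.60 at 12 h and ARPC1B (0.59) at -0.77 at 8 h. The ATP-gated channel gene P2RX5 (0.84) was at -0.65 at 8 h and -0.84 at 12 h. Its values were 9.09, 8.93 and 8.80 with pimasertib at 4, 8 and 12 h, against 8.24, 9.59 and 9.64 with DMSO, so the DMSO array of 4 h was the low one.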

How the results depend on the processing

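No paired analysis was possible because each treatment had 1 array at 4 h. Against 77 lower and 74 higher genes, the counts were 77 and 74 with a higher background threshold or with no filter on dim probes, 76 and 74 where both arrays had to exceed the threshold, 56 and 61 with the mean over probes, 86 and 70 with cyclic loess, and 88 and 73 with the mean of the pimasertib arrays of 4 and 8 h. They were 128 and 107 with normexp, 4 and 4 at 2-fold, and 39 and 239 with the mean of the DMSO arrays of 4 and 12 h, where lower genes made up 14% of those past the fold against 51.0%. Genes lower at both later times, 40 at first, numbered 25 with the mean over probes, 67 with normexp and 4 at 2-fold, and genes higher at both, 27 at first, numbered 43 with normexp and 0 at 2-fold. Genes whose other probes all had their sign, 18 lower and 17 higher at first, numbered 26 higher with normexp, 1 and 1 at 2-fold, and 9 and 31 with the mean of the DMSO arrays. Of the list medians 207 stayed within the robust SD over genes of their first value and 1 moved by more, that of the ERK feedback list, to -0.29 with the higher threshold, where fewer dim members were left. For the genes named in the text or by the rule, 1190 values stayed within that SD and 142 moved by more, 93 of them with the mean of the DMSO arrays, where HAT1 (0.15) and BLZF1 (0.071) changed sign. With the higher threshold, no dim filter and the filter on both arrays, all 162, 168 and 167 values stayed. These settings seldom change which probe is brightest, so they test the values little. Past 1.5-fold in all 8 alternatives that keep the fold were 14 lower and 10 higher genes, and these settings are among the 8. The causes of these moves were not tested.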

Other observations

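Of the 4170 probes in use without a single annotated gene, 12 lower ones and 9 higher ones reached a 2-fold difference. Among 13608 probes annotated to 1 gene, 105 were lower and 141 higher past 1.5-fold (1.81%). The 195 long non-coding RNA genes included 1 lower and 1 higher (1.03%), and the 195 pseudogenes included 4 lower and 1 higher (2.56%).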
